A study of Phyllostachys edulis with 2 samples.

Results

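Starch synthases were followed in the transcriptomes of Moso bamboo (Phyllostachys edulis) rhizome lateral buds at the early shoot stage and at the germination stage. All buds were wild type and were collected underground, and RNA of pooled bud samples gave 1 library for each stage. Members were chosen by the description of their best protein match, which had to name a starch synthase. They numbered 47 transcripts of 12 loci, out of 148492 transcripts of 85391 loci in the whole assembly. A locus is a group of transcripts that the assembly kept together, and the reads of its matching transcripts were summed. By the isoform named, 2 loci were granule-bound and 10 were soluble. Among the soluble loci, 1 was named starch synthase I (SSI), 5 SSII, 2 SSIII, 1 SSIV and 1 SSV. No measured value entered this choice, but the enzyme family itself was selected on earlier results of these counts, so its read counts and ratios are given as a description and without a test.

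Starch synthases add glucose from ADP-glucose to the growing chains of starch inside plastids. The granule-bound form makes amylose, the nearly unbranched part of starch, and in cereals its form II is the one of leaves and other vegetative tissues, whereas form I is the Waxy protein of the endosperm. The soluble forms build amylopectin, the branched part. In cereals SSI extends short chains, SSII intermediate chains and SSIII long chains, and in Arabidopsis SSIV and SSV take part in the initiation of granules. Buds of a rhizome live on carbohydrate made elsewhere in the plant, and starch is one of the forms in which it is stored.

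In total 7878826 reads were counted in the early shoot library and 4481221 reads in the germination library. Early shoot counts were divided by 1.8, the median of their ratio to the germination counts over transcripts with reads in both libraries. All log2 ratios are early shoot over germination after this scaling. Each interval given in brackets is an exact 95% one (Clopper-Pearson) from how the reads were divided between early shoot and germination. It covers counting error only and treats every read as counted once. Where reads were counted on several transcripts of a locus, the interval of a sum would be too narrow. Since each stage has 1 library, differences could not be checked against replicates, and p-values were not calculated. Because whole buds were used, a larger share of starch-storing cells and more RNA in each of them cannot be told apart. Of the terms for dividing bud tissue, knotted-1 homeobox and cyclin-B were found, while histone H4, proliferating cell nuclear antigen and cyclin-dependent kinase B occur in no description. As RPM, reads scaled to the total of their library, the 5 loci found summed to 304 RPM in early shoot and 310 RPM in germination. Among them cyclin-B, which drives mitosis, had 227 reads in early shoot and 18 in germination, a log2 ratio of 2.81 (from 2.12 to 3.59), and the 4 knotted-1 loci lay between -1.04 and 0.89. The terms for green leaf tissue, which both occur, gave 51.7 RPM in early shoot and 43.1 RPM in germination. Those for vascular tissue gave 701 RPM in early shoot and 1295 RPM in germination, nearly all from cellulose synthase, since laccase had 1 read in each library. The term cellulose synthase also matched cellulose synthase-like proteins, such as a probable mannan synthase (Locus_6478), so its sum is not one of vascular tissue alone. Log2 ratios of its loci lay between -2.54 (Locus_1149) and 0.28 (Locus_16483). No description named a root cap or a Casparian strip. The part of these tissues in the results was not tested.

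Starch synthase reads were more abundant in the early shoot library, and more so for the granule-bound form than for the soluble forms. On all 47 transcripts 29083 reads were counted in early shoot (0.369% of the library) and 6812 in germination (0.152%), a log2 ratio of 1.25 (from 1.21 to 1.28). The granule-bound loci had 19727 reads in early shoot and 3958 in germination, a log2 ratio of 1.47 (from 1.42 to 1.52), or 2.77-fold. The soluble loci together had 9356 reads in early shoot and 2854 in germination, a log2 ratio of 0.86 (from 0.80 to 0.93), or 1.82-fold. The ratio of the granule-bound loci was above that of the soluble loci by 0.60 on the log2 scale (from 0.53 to 0.68), a difference that does not depend on the scaling of the libraries.

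To be called, a feature needed RPKM (RPM per kilobase of transcript) above 1 in early shoot and in germination, and a G-fold value above 1 or below -1. The G-fold value is a cautious log2 ratio, namely the 0.01 quantile of its posterior on the side nearest 0, set to 0 if the outer quantiles have opposite signs. All 12 loci passed the RPKM cutoff, and 5 of them were called higher in early shoot. These were both granule-bound loci and 3 of the SSII loci. None was called higher in germination. Over all 68834 loci that passed the cutoff, 1.39% were called higher in early shoot and 3.7% higher in germination, and over the 18538 of these with at least 50 reads the shares were 4.94% and 9.6%. G-fold values were above 0 in 9 starch synthase loci, at 0 in 2 and below 0 in 1, while 10.1% of all loci above the cutoff lay above 0 and 12.7% below, or 31.0% and 27.6% of those with at least 50 reads. Adding 1 read to every count, the median of the log2 ratios was 1.10 over the 12 loci and 0.07 over the loci with at least 50 reads.

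**Figure D1:**
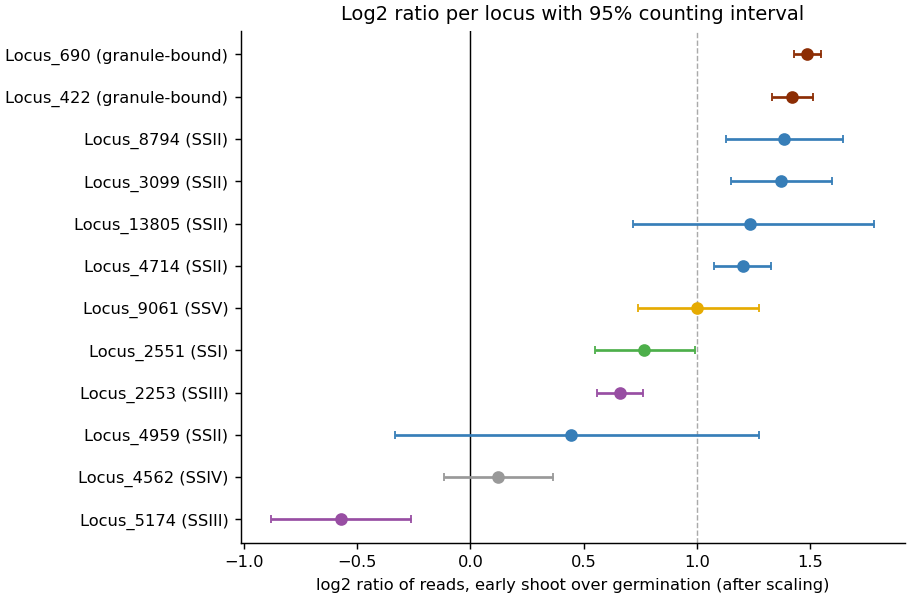
Log2 ratio of the reads of each starch synthase locus, early shoot over germination after scaling, with exact 95% counting intervals. Colours stand for the isoform class, the solid line for no difference and the dashed line for a log2 ratio of 1. Values run from 1.49 for Locus_690 to -0.57 for Locus_5174, the only locus on the side of germination.

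The granule-bound loci, Locus_690 and Locus_422, were the most abundant starch synthases in both stages. Every matching transcript of both has granule-bound starch synthase II of rice as its best match, and form I is named in no description and was not analysed here. Locus_690 had 14024 reads in early shoot and 2775 in germination, a log2 ratio of 1.49 (from 1.43 to 1.55) with a G-fold value of 1.42. Locus_422 had 5703 reads in early shoot and 1183 in germination, a log2 ratio of 1.42 (from 1.33 to 1.51) with a G-fold value of 1.31. The ratios of these loci differed by 0.07 (from -0.04 to 0.18), so that no difference between them was detectable at this depth. Whether they are separate genes or copies of a single gene was not tested.

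Levels were compared per length, as the RPKM summed over the matching transcripts of a locus. Locus_690 reached 1481 RPKM in early shoot and 516 in germination, and Locus_422 reached 725 in early shoot and 267 in germination. When every locus in the assembly was ranked by the RPKM summed over all its transcripts, matching or not, Locus_690 stood at place 33 in early shoot and 140 in germination, and Locus_422 at place 72 in early shoot and 289 in germination. Such sums can be larger for loci with many or short transcripts. Locus_690 has 24 transcripts, compared with a median of 2 for loci with at least 50 reads, and its transcript of 436 bp alone had 393 RPKM in early shoot. The next starch synthase in early shoot was Locus_4714 of the SSII class, with 118 RPKM in early shoot and 50.2 in germination. In germination the next was Locus_2253 of the SSIII class, with 65.3 RPKM in germination and 107 in early shoot. The loci of both forms therefore did not overlap in level in either library.

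**Figure D2:**
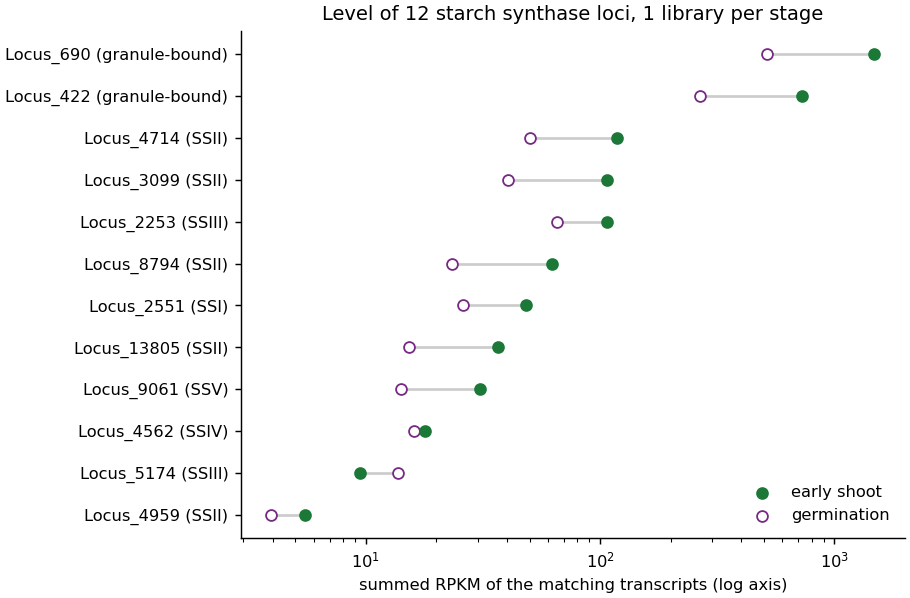
Level of each starch synthase locus as summed RPKM on a log axis, with filled points for early shoot and open points for germination. The granule-bound loci, at 725 and 1481 RPKM in early shoot and 267 and 516 RPKM in germination, stand above all 10 soluble loci in both libraries.

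Among the SSII loci, 4 of 5 had log2 ratios above 1. Locus_4714, matched to soluble starch synthase II-2 of rice, was the most abundant with 2648 reads in early shoot and 639 in germination. Its log2 ratio was 1.20 (from 1.08 to 1.33) with a G-fold value of 1.06. Locus_3099, matched to starch synthase II of wheat and of the goatgrass Aegilops tauschii, had 951 reads in early shoot and 204 in germination, a log2 ratio of 1.37 (from 1.15 to 1.60). Locus_8794, matched to the maize isoform zSTSII-1, had 710 reads in early shoot and 151 in germination, a log2 ratio of 1.39 (from 1.13 to 1.65). All 3 were called higher in early shoot. When only the most abundant matching transcript of each locus was counted, Locus_4714 and Locus_3099 were no longer called.

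The remaining SSII loci had fewer reads. Locus_13805, a single transcript of 555 bp with the same maize match as Locus_8794, had 161 reads in early shoot and 38 in germination. Its log2 ratio of 1.23 was like that of Locus_8794, but the interval, from 0.72 to 1.79, was wider and it was not called. The difference of these loci was 0.15 (from -0.46 to 0.74), and whether they are pieces of the same gene was not tested. Locus_4959, matched to soluble starch synthase II-1 of rice, had 49 reads in early shoot and 20 in germination, the fewest of all members. Its log2 ratio of 0.44 had an interval from -0.33 to 1.27, which holds 0. The ratio of Locus_4714 was above it by 0.76, with an interval from -0.08 to 1.55 that also holds 0. Summed over the class, SSII had 4519 reads in early shoot and 1052 in germination, a log2 ratio of 1.25 (from 1.16 to 1.35), which was 0.21 (from 0.10 to 0.32) below that of the granule-bound loci. Without Locus_4714 the SSII value was 1.33 (from 1.18 to 1.49).

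The SSIII loci went in opposite directions. Locus_2253, matched to soluble starch synthase III-1 of rice and IIIb-1 of maize, had 2980 reads in early shoot and 1047 in germination, a log2 ratio of 0.66 (from 0.56 to 0.76). Its G-fold value of 0.54 was above 0 and below the threshold. Locus_5174 had 196 reads in early shoot and 162 in germination, a log2 ratio of -0.57 (from -0.88 to -0.26) with a G-fold value of -0.22. It was the only starch synthase locus with an interval below 0, and it was not called. The ratios of these SSIII loci differed by 1.23 (from 0.91 to 1.56).

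The match of Locus_5174 differs from those of the other 11 loci, since it is a starch synthase III precursor of tomato while the others match grass proteins. Only 1 of its 3 transcripts carries this description. The others, of which 1 is matched to a hypothetical protein of sorghum and 1 has no match, had 925 reads in early shoot and 781 in germination and a log2 ratio of -0.60 (from -0.74 to -0.46). The SSIII class held 10.9% of the starch synthase reads in early shoot and 17.7% in germination, most of them from Locus_2253.

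For SSI, SSIV and SSV a single locus each was found. The SSI locus, Locus_2551, had 699 reads in early shoot and 228 in germination, a log2 ratio of 0.77 (from 0.55 to 0.99). The SSV locus, Locus_9061, had 541 reads in early shoot and 150 in germination, a log2 ratio of 1.0 (from 0.74 to 1.27). Both had G-fold values above 0, of 0.51 and 0.69, and neither was called. The SSIV locus, Locus_4562, had 421 reads in early shoot and 215 in germination and had the log2 ratio nearest to 0, at 0.12. Its interval, from -0.12 to 0.37, holds neither 1 nor -1. The ratio of the SSI locus was 0.65 (from 0.32 to 0.98) above that of the SSIV locus.

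When the 12 loci were ordered by their log2 ratio, the counts set only 1 pair of neighbours apart. This was Locus_4562 of SSIV and Locus_5174 of SSIII, at the low end of the order, with a difference of 0.69 (from 0.30 to 1.09). The intervals of the other 10 differences between neighbours held 0. Neighbours in a sorted order are as close as the values allow, and some of these intervals are wide because of few reads, so they do not show that neighbours were alike. From high to low the order ran from the granule-bound and 4 SSII loci through SSV, SSI, the rice-matched SSIII locus and the last SSII locus to SSIV and the tomato-matched SSIII locus. Some loci further apart in it had differences whose intervals did not hold 0, such as Locus_4714 and Locus_2253 (0.54, from 0.38 to 0.71) and Locus_690 and Locus_5174 (2.06, from 1.75 to 2.38).

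The granule-bound form held a larger share of the starch synthase reads in early shoot than in germination. It took 67.8% of them in early shoot (exact interval from 67.3 to 68.4%) and 58.1% in germination (from 56.9 to 59.3%). SSII held nearly equal shares, 15.5% in early shoot and 15.4% in germination. The share of SSIII was smaller in early shoot (10.9%) than in germination (17.7%), as were those of SSI (2.40% in early shoot and 3.35% in germination) and SSIV (1.45% in early shoot and 3.16% in germination). SSV held 1.86% in early shoot and 2.2% in germination, with intervals that overlap. By summed RPKM, which takes transcript length into account, the granule-bound share was 80.2% in early shoot and 74.5% in germination. Locus_690 alone carried 48.2% of the starch synthase reads in early shoot and 40.7% in germination. Without it the granule-bound share was 37.9% in early shoot and 29.3% in germination.

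**Figure D3:**
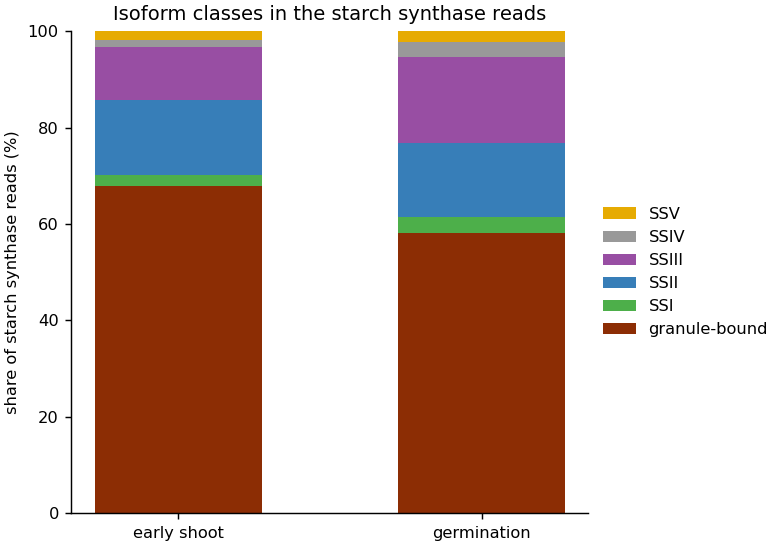
Share of the starch synthase reads of each library, in percent, that fell on each isoform class, with early shoot on the left and germination on the right. The granule-bound form took 67.8% in early shoot and 58.1% in germination, while SSIII took 10.9% in early shoot and 17.7% in germination.

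Among single transcripts, log2 ratios spread less inside the granule-bound loci than in SSI and SSV, which had fewer reads. Other soluble loci, such as Locus_4714 (from 1.13 to 1.33) and Locus_4562 (from -0.05 to 0.30), spread no more than Locus_690 (from 1.34 to 1.74). Of the 47 transcripts, 46 had RPKM above 1 in both libraries, and the exception was a transcript of Locus_2551 of 172 bp with 5 reads in early shoot and 0 in germination. In total 15 transcripts were called higher in early shoot and 0 in germination, compared with 1.4% called higher in early shoot and 3.77% higher in germination over the 120465 transcripts above the cutoff, and 4.29% and 7.74% over those that also had at least 100 reads. All 12 granule-bound transcripts were among the called ones, together with 1 transcript each of Locus_4714, Locus_3099 and Locus_8794. G-fold values were above 0 in 31 transcripts, at 0 in 15 and below 0 in 1. Over all transcripts above the cutoff 12% lay above 0 and 13.5% below, and over those with at least 100 reads 29.6% and 25.0%. The transcripts of a locus share sequence and may share reads, so they are not independent counts of it.

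The 8 matching transcripts of Locus_690 had log2 ratios between 1.34 and 1.74, and the 4 of Locus_422 between 1.31 and 1.47. The lowest of Locus_690 was a transcript of 1344 bp with 1331 reads in early shoot and 292 in germination (1.34, from 1.16 to 1.53). The highest was a transcript of 1163 bp with 965 reads in early shoot and 160 in germination (1.74, from 1.5 to 1.99). It held 6.88% of the reads of its locus in early shoot (from 6.47 to 7.31%) and 5.77% in germination (from 4.93 to 6.70%), shares whose intervals overlap. In Locus_422 the shares of the 4 transcripts also had overlapping intervals in both libraries, the largest being 28.2% in early shoot and 28.2% in germination.

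In SSI the transcripts were less alike. A transcript of 2186 bp, whose match is soluble starch synthase 1 of rice, had 319 reads in early shoot and 83 in germination, a log2 ratio of 1.09 (from 0.74 to 1.46). A transcript of 2012 bp, matched to starch synthase I of maize, had 63 reads in early shoot and 35 in germination, a log2 ratio of 0.00 (from -0.62 to 0.64). The first held 45.6% of the SSI reads in early shoot (from 41.9 to 49.4%) and 36.4% in germination (from 30.2 to 43.0%). The second held 9.01% in early shoot (from 7.0 to 11.4%) and 15.4% in germination (from 10.9 to 20.7%), and in both cases the intervals just overlap. In SSV the 4 transcripts ranged from 0.72 to 1.76, with only 79 reads in early shoot and 13 in germination behind the highest. The 7 SSIV transcripts, from 2974 to 3063 bp, lay between -0.05 and 0.30, all with G-fold values of 0.

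The loci hold 123 transcripts in all, of which the description did not select 76, and 62 of these have no protein match. They may hold reads that were also counted on the matching transcripts, since the division of common reads among the transcripts of a locus is not given in the sources used here. Their values therefore describe the loci further and are no independent check of them. In Locus_690 the 16 other transcripts had 549 reads in early shoot and 97 in germination, a log2 ratio of 1.65 (from 1.34 to 1.98). In Locus_422 the 2 others had 1422 reads in early shoot and 286 in germination, a log2 ratio of 1.47 (from 1.28 to 1.65). The 28 others of Locus_2253 had a log2 ratio of 0.71 (from 0.57 to 0.86), close to the 0.66 of its matching transcripts, and the 9 others of Locus_4714 had 1.17 (from 1.05 to 1.30). Among these 9, the 4 matched to the same hypothetical protein of rice stood lower, with 481 reads in early shoot and 156 in germination and a log2 ratio of 0.78 (from 0.51 to 1.05), an interval just below that of the matching transcripts.

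In SSI the difference was wider. The 7 other transcripts of Locus_2551, with 246 reads in early shoot and 141 in germination, had a log2 ratio of -0.05 (from -0.35 to 0.26), an interval wholly below that of its matching transcripts. For the other loci with such transcripts, Locus_4714 included, the interval of their sum overlapped that of the matching transcripts. Of the 7, 2 are matched to rice proteins with other names and 5 have no match. The 2 had log2 ratios of -0.43 (from -0.93 to 0.08) and 0.15 (from -0.38 to 0.70). The 5 summed to 0.21 (from -0.37 to 0.82). Taken singly, only the first of these intervals lies wholly below that of the matching transcripts. Whether these transcripts belong to the SSI gene was not tested. When all transcripts of the locus were summed, the log2 ratio of Locus_2551 was 0.51 (from 0.33 to 0.69), against 1.09 when only its most abundant matching transcript was counted.

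**Figure D4:**
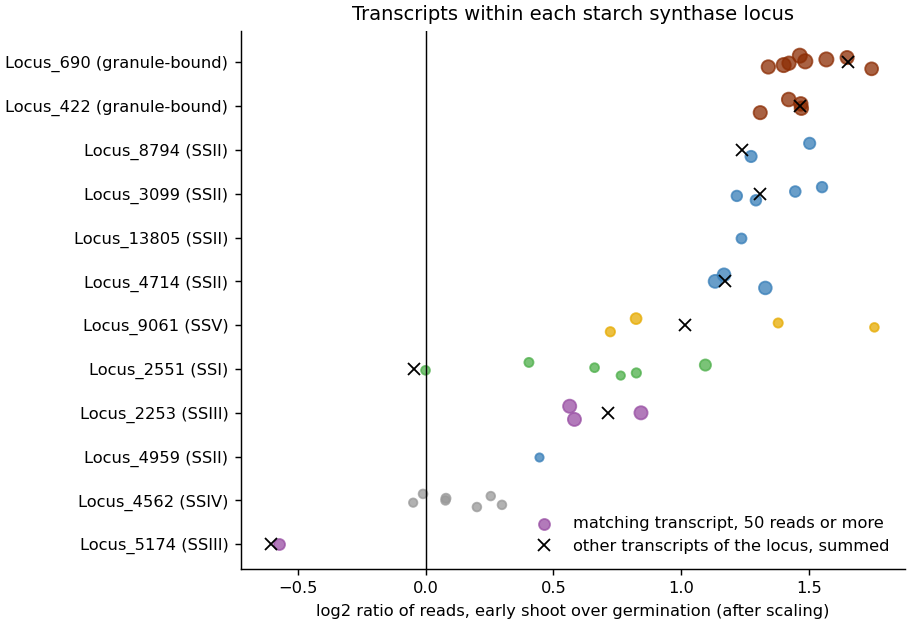
Log2 ratio of each matching transcript with at least 50 reads (coloured points, larger for more reads) and of the other transcripts of the same locus summed (crosses), early shoot over germination after scaling. The crosses fall near the points in most loci, whereas in Locus_2551 (SSI) the cross lies at -0.05 and the points reach 1.09.

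Other enzymes of starch metabolism were taken from a list of 15 steps of synthesis, breakdown and supply. Of these steps 11 were found in the descriptions, on 69 transcripts of 27 loci. Of the 25 loci that passed the RPKM cutoff, 5 were called higher in early shoot and 0 higher in germination. Beside this stand the 1.39% and 3.7% of all loci given above, and the 4.94% and 9.6% of those with at least 50 reads. G-fold values were above 0 in 16, at 0 in 8 and below 0 in 1. Of all loci above the cutoff 10.1% lay above 0 and 12.7% below, or 31.0% and 27.6% of those with at least 50 reads. The 19 loci with at least 100 reads had a median log2 ratio of 0.86 without an added read. The medians given above, with 1 read added to every count, were 0.07 over all loci with at least 50 reads and 1.10 over the starch synthases.

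ADP-glucose pyrophosphorylase, which makes the substrate of the starch synthases, was represented by loci with unlike ratios. Locus_594, matched to the small subunit, had 4190 reads in early shoot and 965 in germination, a log2 ratio of 1.27 (from 1.17 to 1.37), and was called. Locus_3623, also matched to the small subunit, had 2044 reads in early shoot and 936 in germination and a log2 ratio of 0.28 (from 0.17 to 0.39). The branching enzymes, which introduce the branch points of amylopectin, included Locus_345, matched to starch-branching enzyme 1 of rice, with 680 reads in early shoot and 143 in germination (1.40, from 1.14 to 1.67), and it was called. The other branching enzymes had log2 ratios of 0.90 (Locus_172, type IIa), 0.29 (Locus_2859, type IIb) and 0.27 (Locus_9216, type IIb).

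The named loci of debranching enzymes, beta-amylase and phosphorylase all had log2 ratios above 1. Locus_1705, matched to isoamylase-type debranching enzyme 3 of maize, had 345 reads in early shoot and 40 in germination (2.26, from 1.79 to 2.77), and Locus_25555, an isoamylase, had 130 reads in early shoot and 23 in germination (1.65, from 1.0 to 2.36). Beta-amylase, which releases maltose from starch, had the largest log2 ratio of the named loci of the list, with 1812 reads in early shoot and 159 in germination on Locus_5145 (2.66, from 2.43 to 2.91). Plastidial starch phosphorylase, Locus_829, had 4768 reads in early shoot and 1315 in germination (1.01, from 0.92 to 1.10). Of these, Locus_1705 and Locus_5145 were called.

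On the side of supply, the sucrose synthases, which split sucrose, had values of 0.96 (Locus_5291), 0.86 (Locus_588), 0.68 (Locus_2521) and -0.24 (Locus_633). Locus_633, with 3223 reads in early shoot and 2108 in germination, was the only locus of the list with a G-fold value below 0. The phosphoglucomutases, which interconvert glucose phosphates, had 0.85 (Locus_1094) and 2.15 (Locus_10037, from 1.64 to 2.70, called), the last with a description that also names phosphomannomutase. A Brittle 1-like protein, a name known in maize for the carrier of ADP-glucose, had -0.17 (Locus_9842, from -0.74 to 0.42). The alpha-glucosidases, listed under breakdown, had 0.80 (Locus_5263) and 0.42 (Locus_6792, described as a putative alpha-glucosidase II). Over this pair of libraries, the loci of the list with log2 ratios nearest to that of Locus_690 were Locus_345 (1.40), Locus_25555 (1.65) and Locus_594 (1.27). With 2 libraries this likeness rests on a single ratio for each locus.

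**Figure D5:**
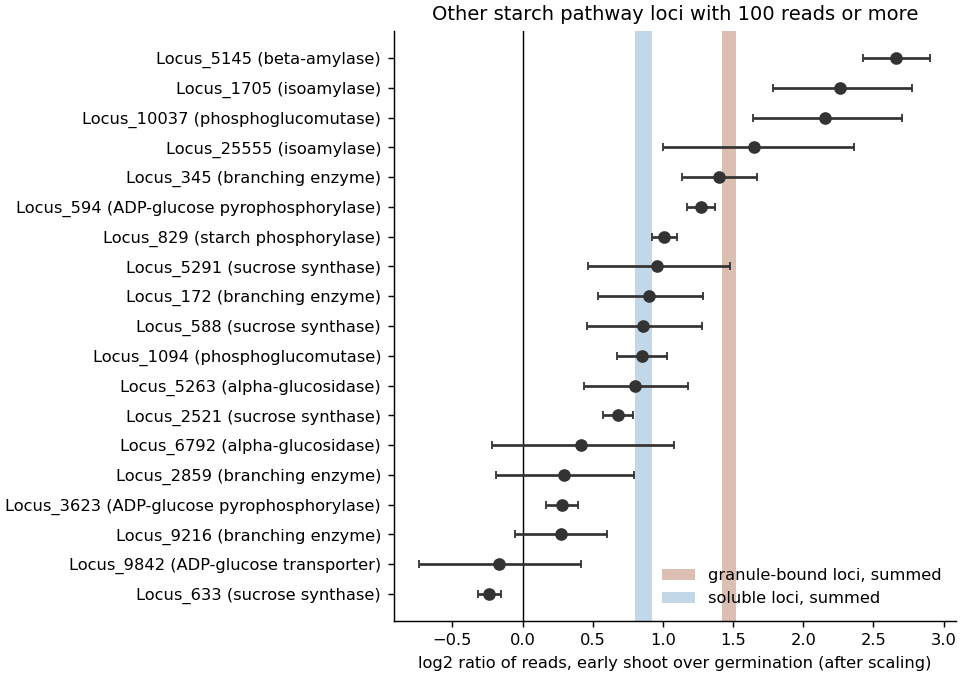
Log2 ratio of the 19 other starch pathway loci with at least 100 reads, early shoot over germination after scaling, with exact 95% counting intervals. Shaded bands give the intervals of the summed granule-bound loci (from 1.42 to 1.52) and of the summed soluble loci (from 0.80 to 0.93), and the loci reach from -0.24 for a sucrose synthase to 2.66 for beta-amylase.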

How the data were processed

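RNA from pooled rhizome lateral buds was sequenced, with 1 library at either stage. The authors deposited, for every assembled transcript, its unnormalized read count and its RPKM, which recalculation from count, length and table total gave to within 0.0483. The submitters' processing notes name TopHat2 2.0.8b and Cufflinks 2.2.1, but the names of the transcripts are those of a de novo assembly, and its assembler and counter are not given in the sources used here. The study describes a search of predicted proteins against those of rice, but the deposited descriptions also name proteins of maize, wheat and tomato, and the search behind them is not given. Transcript lengths (bp) and protein descriptions were used as deposited.

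Transcripts described as "starch synthase", in any case, were summed per locus and grouped by isoform, the maize isoform zSTSII-1 with SSII. The posterior of the log2 ratio came from a beta distribution with 1 read added to each count. It follows the idea of the G-fold number of the study and is not the output of that software. Differences between log2 ratios have exact conditional intervals of the odds ratio. Python 3.11.15, pandas 2.3.3, NumPy 2.4.6 and SciPy 1.17.1 were used, and the calls were tested on simulated data. The changes simulated were larger than those of the called loci named here, and the simulated counts were independent. That test therefore does not cover smaller changes, shared reads or differences between replicates. TMM came from edgeR 4.0.16 under R 4.3.3.

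Named were all starch synthase loci, the pathway loci with at least 100 reads, and the 3 of these nearest to the starch synthase locus with the most reads. Members and lists were chosen with earlier results of these data known. ADP-glucose pyrophosphorylase was added to the terms of the list after the data were seen, as the other name of glucose-1-phosphate adenylyltransferase, and so was the background of transcripts or loci with a minimum of reads. Single transcripts were named after their values were seen. Alternatives were other scalings, sums, quantiles, thresholds and cutoffs, and a thinned early shoot library.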

Additional observations from a re-analysis of the deposited data

How the results depend on the processing

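No log2 ratio of a locus or of the granule-bound or soluble sum changed sign under the alternatives run. The other scalings (1.7 to 1.76) raised every log2 ratio by 0.03 to 0.08. With the upper quartile the granule-bound value was 1.55 and the soluble value 0.95. Summing all transcripts of each locus gave 0.74 for the soluble loci and granule-bound shares of 58.2% in early shoot and 45.6% in germination. With the most abundant matching transcript of each locus the soluble value was 0.79, the shares were 53.1% in early shoot and 41.7% in germination, and 3 loci (Locus_422, Locus_690 and Locus_8794) were called. By RPKM the shares were 80.2% in early shoot and 74.5% in germination, and without Locus_690, left out after the data were seen, 37.9% in early shoot and 29.3% in germination. The soluble value was 0.97 without Locus_2253 and 0.75 without Locus_4714, both left out after the data were seen. The plain log2 ratio called 25 transcripts, as did log2 RPKM with 1 added (25) or 0.1 added (25), and a threshold of 2 called 0 transcripts and 0 loci. All 5 called loci were called under every alternative other than that threshold and the most abundant transcript. Of 96 values of single loci, 3 left the main interval, 1 for Locus_690 (1.57 with the upper quartile) and 2 for Locus_2551 (0.51 with all transcripts and 1.09 with the most abundant). Without ADP-glucose pyrophosphorylase as an added term, 4 pathway loci were called. No paired analysis was possible because each stage has 1 library. Depth limits Locus_4959 and Locus_13805 most, with 69 and 199 reads in both libraries.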

Other observations

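Some starch synthase loci have matching transcripts of equal length, whose counts show how evenly reads were spread over them. In Locus_4714 the 3 transcripts of 2843 bp had between 832 and 955 reads in early shoot and between 184 and 242 in germination. In Locus_4562 the 4 transcripts of 2988 bp had between 57 and 78 reads in early shoot and between 27 and 41 in germination. In Locus_690 the 2 transcripts of 1492 bp had 2224 and 2246 reads in early shoot and 448 and 421 in germination. Member loci had a median of 8 transcripts, compared with 2 for all loci with at least 50 reads.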
